A study of Vitis vinifera with 15 samples.

Results

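The genes described here are 148 genes of secondary metabolism outside the stilbene synthases and the core flavonoid pathway, in leaves of grapevine “Gaglioppo” on 5 rootstocks. They were taken from the 2692 genes that the study listed as at least 4-fold different between GAG-1103P and another graft combination, out of 29970 annotated genes. Of these, 216 carry the category secondary metabolic process, and 68 were left out because the annotation names a stilbene, phenylalanine ammonia, chalcone, flavanone 3, flavonol synthase, dihydroflavonol, leucoanthocyanidin, anthocyanidin, MYB or lipoxygenase. The remaining 148 include some genes of those pathways under other spellings, namely 7 annotated as phenylalanin ammonia-lyase or phenylalanine ammonium lyase, 2 resveratrol synthases and 2 naringenin,2-oxoglutarate 3-dioxygenases. Because the differences from GAG-1103P chose the genes, values against GAG-1103P are given as a description with no test. The other contrasts with GAG-41B were left untested too, since nearly all of the genes were listed for GAG-41B. Tests are given for GAG-KOB, GAG-3309C and GAG-17-37 against each other, contrasts by which no gene was listed, although the same libraries entered the list.

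The scion was the same in every vine, V. vinifera “Gaglioppo” of the Librandi CVT 80 clone, and the combinations differ in the rootstock. GAG-41B stands on 41 B Mgt (V. vinifera × V. berlandieri), GAG-KOB on Kober 5 BB (V. riparia × V. berlandieri) and GAG-3309C on 3309 Couderc (V. riparia × V. rupestris). GAG-17-37 and GAG-1103P stand on 17-37 Mgt and 1103 Paulsen, both V. rupestris × V. berlandieri. All vines were 3 years old, stood in one vineyard, and gave fully expanded leaves at the end of August. Each combination had 3 libraries (A, B and C), each a pool of 2 leaves from each of 3 vines. Since each combination stood in a block of its own, rootstock and place in the vineyard cannot be told apart, and p-values measure the spread between pools of one block. Expression is given as deposited, in FPKM, fragments per exon length and mapped fragments. The paper names a geometric method for the normalization, so the values are not scaled by the mapped fragments of each library alone.

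Phenylpropanoids arise from phenylalanine through cinnamate, coumarate and coumaroyl-CoA, and from there the carbon flows into stilbenes, flavonoids or the monolignols that laccases and peroxidases join into lignin. Terpenoids arise from prenyl diphosphates, which terpene synthases fold into volatile mono- and sesquiterpenes or into the diterpene precursors of gibberellins. Cytochromes P450, glycosyltransferases and glutathione S-transferases then oxidise, conjugate or carry the products, and in grapevine leaves many of these families are known from responses to pathogens and wounding.

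The mean level of a gene over the 15 libraries lay between 0.165 and 2225 FPKM with a median of 6.23 FPKM, against a median of 14 FPKM over the 21364 genes tested. All 148 genes passed the filter of a mean of at least 0.1 FPKM, 20 of them with a mean under 1 FPKM. By role the genes fell into 37 cytochromes P450 with CYP names, 16 laccases, 15 glycosyltransferases, 14 flavonoid-modifying enzymes, 13 glutathione S-transferases, 8 terpene synthases, 8 enzymes of the shikimate and phenylpropanoid entry, 8 monolignol, lignan and hydroxycinnamate enzymes, 8 alkaloid-annotated enzymes, 7 phenylalanine ammonia-lyases, 6 enzymes of prenyl chains, gibberellin precursors and carotenoids, 5 taxane-annotated enzymes, 2 resveratrol synthases and 1 enzyme of fatty acid elongation. The mean was highest in GAG-41B for 90 genes (60.8%, against 36.5% of all genes tested) and in GAG-1103P for 32 (21.6%, against 28.9%). It was lowest in GAG-1103P for 88 genes (59.5%, against 28.8%) and in GAG-41B for 48 (32.4%, against 36.7%). The shares highest in GAG-1103P and lowest in GAG-41B were thus under those of all genes. A complete order GAG-41B, GAG-KOB, GAG-3309C, GAG-17-37, GAG-1103P from high to low held for 37 genes (25%, against 7.66% of all genes tested), and the reverse order for 19 (12.8%, against 6.95%). To describe what the list selected, genes were counted at a difference of at least 4-fold and an adjusted p of 0.05 or less. The p-value is a limit here and not a test. In GAG-41B vs. GAG-1103P there were 137 (92 higher and 45 lower, with 13.5% of all genes tested). GAG-KOB vs. GAG-1103P had 51 (50 higher and 1 lower, 3.49% of all). GAG-3309C vs. GAG-1103P had 27 (25 higher and 2 lower, 2.25% of all), and GAG-17-37 vs. GAG-1103P had 27, all higher (1.54% of all).

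**Figure D1:**
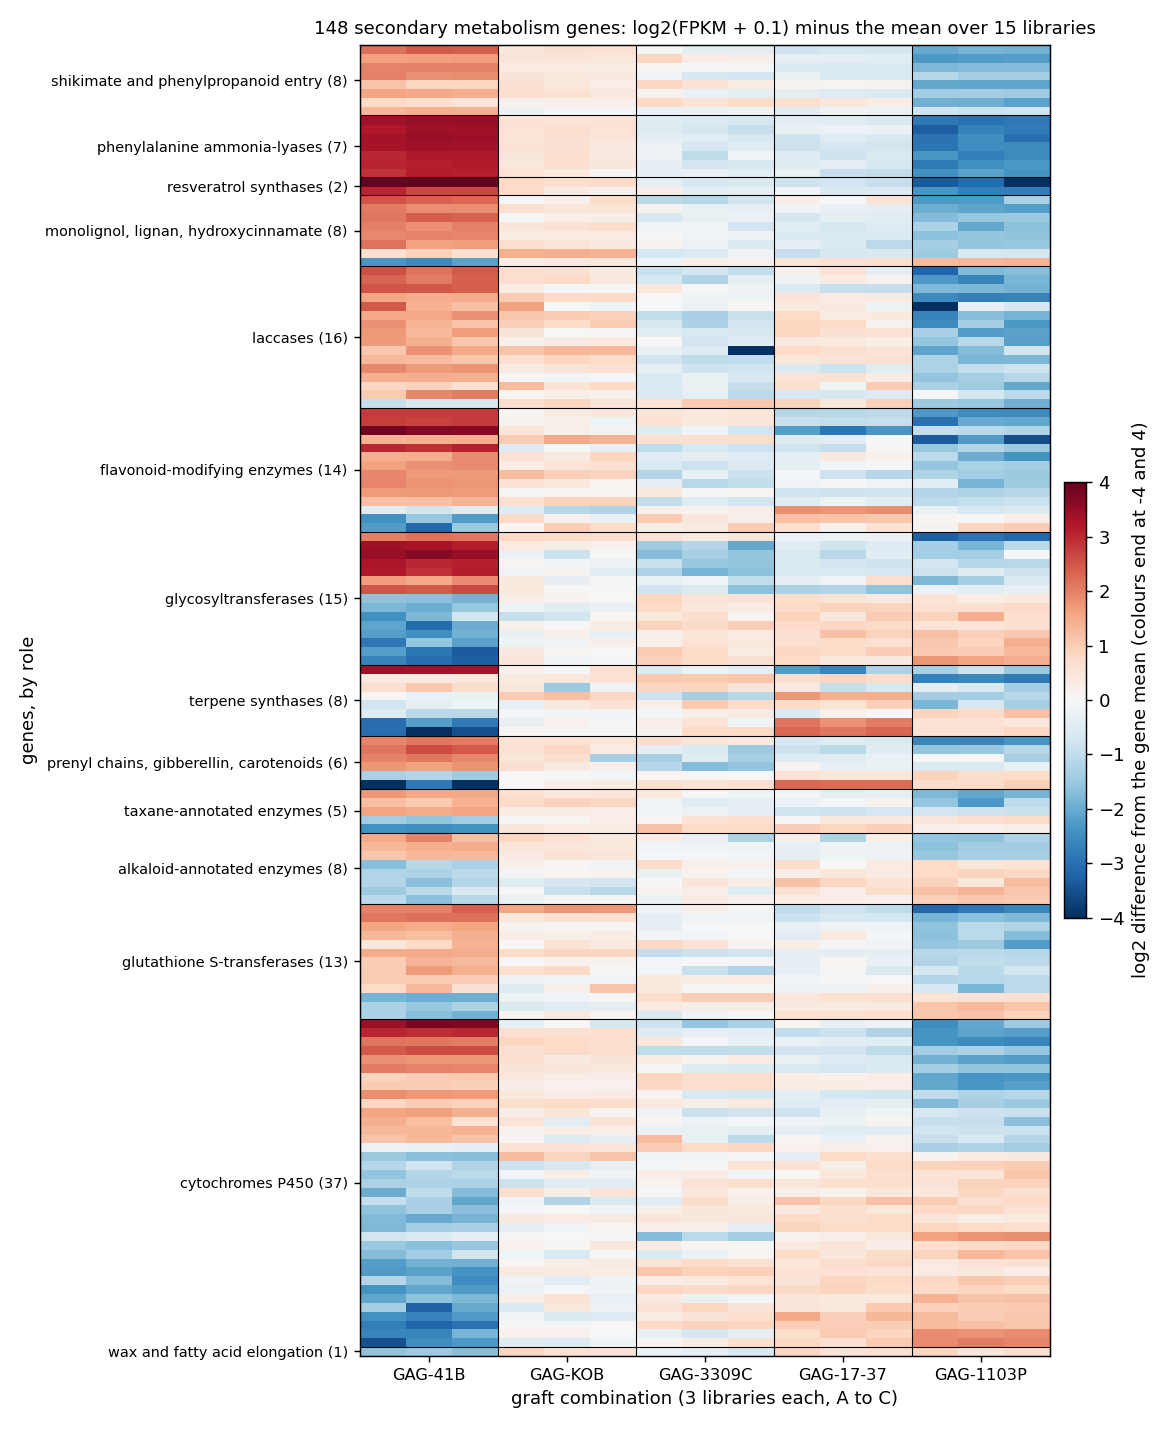
Each row is 1 of the 148 genes and each column 1 of the 15 libraries, and the colour gives log2(FPKM + 0.1) minus the mean of the gene over the 15 libraries. Rows are grouped by role, with the number of genes in brackets, and sorted within a role by the difference between GAG-41B and GAG-1103P, so that the 90 genes highest in GAG-41B stand out in red on the left and the 48 genes lowest there in blue.

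Among the 3 combinations between these extremes many of the genes differed as well. The genes were chosen for large differences from GAG-1103P in these same libraries. Shares above those of all genes may therefore come from the choice, as may a lean toward higher values in GAG-KOB. In GAG-KOB vs. GAG-3309C, 89 genes passed the test (limma on log2(FPKM + 0.1), Benjamini-Hochberg adjusted p at or under 0.05 across the whole table), 65 higher and 24 lower in GAG-KOB, against 34.9% of all genes (18.7% higher and 16.2% lower). With every library scaled to the same total the split was 59 higher and 36 lower. In GAG-KOB vs. GAG-17-37 it was 92 genes, 59 higher and 33 lower, against 33.3% of all (17.4% higher and 15.9% lower). In GAG-3309C vs. GAG-17-37, 59 genes passed, 27 higher and 32 lower, against 16.9% of all (7.37% higher and 9.53% lower). The median differences of the 148 genes were 0.42, 0.31 and -0.06 on the log2 scale in these contrasts, and those of all genes tested were 0.00. Whichever library of the compared pair was left out, 73 of the 89, 74 of the 92 and 47 of the 59 genes stayed called. The 3 contrasts share libraries, so their counts are not independent of each other. Genes are named below by level, by range and by enzyme class within each role. A further 26 genes were named after their values were seen, among them the hydroxycinnamoyl transferase, shikimate, CYP707A3, CYP72A1, CYP86A, CYP81D2, UGT75C1, dirigent and peroxidase genes and 4 of the laccase genes.

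Library totals were 2208240 to 2221125 FPKM in GAG-41B and 1558965 to 1797627 FPKM in the other 12 libraries. As leaf markers 7 photosynthesis genes were taken, all on unplaced scaffolds and from the part of the annotation used here. Of these, 6 had values above 0 and 1, psbC, was listed at 0 in every library. How well the 7 genes follow the share of leaf mesophyll was not tested. Their summed level was 2604 to 2921 FPKM in GAG-41B, 1741 to 1935 FPKM in GAG-KOB, 1353 to 1493 FPKM in GAG-3309C, 1888 to 2134 FPKM in GAG-17-37 and 2249 to 2415 FPKM in GAG-1103P. Both LHCB3 genes among the 7 were also in the study's list, hence chosen by the contrasts with GAG-1103P, and without them the sums were 2600 to 2916 FPKM in GAG-41B, 1740 to 1934 FPKM in GAG-KOB, 1352 to 1493 FPKM in GAG-3309C, 1887 to 2133 FPKM in GAG-17-37 and 2249 to 2414 FPKM in GAG-1103P. Of the 15 listed genes annotated with senescence, 9 were higher and 6 lower in GAG-41B vs. GAG-1103P, given as a description since the same contrast chose them. Their differences ran from -4.91 to 4.01 on the log2 scale with a median of 1.66. Among the 6 lower ones, the stay-green protein gene Vv02s0025g04660, which acts in chlorophyll breakdown, had 61.2 ± 1.73 FPKM in GAG-41B and 472 ± 16.7 FPKM in GAG-1103P. That gene does not stand for the 15, of which most were higher in GAG-41B. The summed level of the 15 was nevertheless lower there, 1361 to 1607 FPKM in GAG-41B against 1918 to 2149 FPKM in GAG-1103P. In the other combinations it was 1143 to 1252 FPKM (GAG-KOB), 1476 to 1522 FPKM (GAG-3309C) and 1677 to 1784 FPKM (GAG-17-37). In pooled leaf tissue, fewer cells of a type and less RNA per cell cannot be told apart, and the part of leaf stage in the differences below was not tested.

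The entry of the phenylpropanoid pathway was lowest in GAG-1103P for all 8 genes and highest in GAG-41B for 7, and in between GAG-KOB mostly stood above GAG-17-37. Among the 3 tested contrasts, 5 of the 8 genes were higher in GAG-KOB than in GAG-17-37 and 0 lower, 4 were higher and 1 lower in GAG-KOB vs. GAG-3309C, and 4 were higher and 0 lower in GAG-3309C vs. GAG-17-37. That was 62.5%, 62.5% and 50% of the 8, against 33.3%, 34.9% and 16.9% of all genes tested. Cinnamate 4-hydroxylase converts cinnamate to coumarate as the P450 step of the pathway. Its most abundant gene, Vv06s0004g08150, had 1425, 1672 and 1653 FPKM in GAG-41B, 423, 484 and 465 in GAG-KOB, 290.3, 239 and 233 FPKM in GAG-3309C, 172, 195 and 191 in GAG-17-37 and 75.4, 84.7 and 82.8 in GAG-1103P. No library of a combination reached into the range of the next, and the 5 combinations stood in one descending order. GAG-KOB was above GAG-3309C by 0.85 ± 0.09 on the log2 scale (SE, n = 3 libraries each, limma adjusted p = 1.65e-05) and GAG-3309C above GAG-17-37 by 0.44 ± 0.09 (adjusted p = 0.00574). The other main gene of this step, Vv11s0065g00350, had 672, 677 and 685 FPKM in GAG-41B, 309, 309 and 296 in GAG-KOB, 392, 266 and 262 FPKM in GAG-3309C, 165, 168 and 161 in GAG-17-37 and 43.6, 45.6 and 46.9 in GAG-1103P. Here the libraries of GAG-KOB lay inside the range of GAG-3309C, where library A stood at 392 FPKM, and the difference of 0.02 ± 0.12 did not pass the test (adjusted p = 0.936). Without that library it did (adjusted p = 0.00171), and GAG-3309C was above GAG-17-37 by 0.87 ± 0.12 with all libraries (adjusted p = 0.000228). A minor gene annotated cinnamate 4-hydroxylase, Vv11s0078g00290, was far lower, with 13.7 ± 1.62 FPKM in GAG-41B, 9.47 ± 1.19 FPKM in GAG-KOB, 10.4 ± 1.91 FPKM in GAG-3309C, 7.68 ± 0.155 FPKM in GAG-17-37 and 1.59 ± 0.013 FPKM in GAG-1103P.

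4-Coumarate-CoA ligase activates coumarate for all later branches, and its 3 listed genes were all highest in GAG-41B and lowest in GAG-1103P. Vv02s0025g03660 averaged 372 ± 28.6 FPKM in GAG-41B, 133 ± 7.13 FPKM in GAG-KOB, 69.5 ± 15.5 FPKM in GAG-3309C, 70.6 ± 8.1 FPKM in GAG-17-37 and 40.4 ± 4.04 FPKM in GAG-1103P (SD, n = 3 each, here and below). It was higher in GAG-KOB than in GAG-3309C by 0.96 ± 0.13 (adjusted p = 0.000121), while the difference of -0.04 ± 0.13 between GAG-3309C and GAG-17-37 did not pass (adjusted p = 0.902). Vv11s0052g01090 had 293, 298 and 303 FPKM in GAG-41B, 92.3, 92.96 and 91.7 in GAG-KOB, 79.9, 71.1 and 71.1 FPKM in GAG-3309C, 50.7, 49.7 and 49.5 in GAG-17-37 and 21.4, 22.4 and 21.98 in GAG-1103P. This gene again gave 5 separate steps, with 0.32 ± 0.05 between GAG-KOB and GAG-3309C (adjusted p = 0.00015) and 0.56 ± 0.05 between GAG-3309C and GAG-17-37 (adjusted p = 5.24e-06). Vv16s0039g02040 averaged 169.7 ± 7.04 FPKM in GAG-41B, 87.8 ± 9.04 FPKM in GAG-KOB, 53.4 ± 11.1 FPKM in GAG-3309C, 42.2 ± 3.295 FPKM in GAG-17-37 and 22.4 ± 0.435 FPKM in GAG-1103P, with an adjusted p of 2.41e-05 for GAG-KOB vs. GAG-17-37. The shikimate pathway, which supplies phenylalanine, was represented by a shikimate kinase gene and a shikimate dehydrogenase gene with a flatter profile. Shikimate kinase gene Vv16s0039g02500 averaged 188 ± 6.45 FPKM in GAG-41B and 65.4 ± 5.17 FPKM, 62.7 ± 2.22 FPKM and 59.9 ± 5.899 FPKM in GAG-KOB, GAG-3309C and GAG-17-37, against 41.3 ± 1.33 FPKM in GAG-1103P. Shikimate dehydrogenase gene Vv14s0030g00650, with 10.8 ± 0.177 FPKM in GAG-KOB against 15.5 ± 1.34 FPKM in GAG-3309C, was the one entry gene that was lower in GAG-KOB (by 0.51 ± 0.10, adjusted p = 0.00187).

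Phenylalanine ammonia-lyase opens the pathway by releasing cinnamate. All 7 genes under the other spellings were highest in GAG-41B and lowest in GAG-1103P, and all 7 were higher in GAG-KOB than in both GAG-3309C and GAG-17-37. Of all genes tested, 18.7% and 17.4% were called higher in these contrasts. Since close copies may share reads, the calls of the 7 genes may not be independent of each other. The most abundant, Vv16s0039g01100, averaged 289 ± 13.2 FPKM in GAG-41B, 37.8 ± 0.664 FPKM in GAG-KOB, 17.5 ± 1.49 FPKM in GAG-3309C, 18.2 ± 0.962 FPKM in GAG-17-37 and 3.404 ± 0.1699 FPKM in GAG-1103P. GAG-KOB exceeded GAG-3309C by 1.11 ± 0.07 (adjusted p = 1.08e-07), whereas GAG-3309C and GAG-17-37 differed by -0.06 ± 0.07 (adjusted p = 0.622), and their libraries overlapped. Vv16s0039g01170, on the same scaffold, averaged 83.3 ± 6.58 FPKM in GAG-41B, 12.3 ± 0.397 FPKM in GAG-KOB, 5.04 ± 0.725 FPKM in GAG-3309C, 6.83 ± 0.126 FPKM in GAG-17-37 and 1.001 ± 0.225 FPKM in GAG-1103P. The resveratrol synthase gene Vv16s0100g01070, a stilbene synthase by function, had 244, 231 and 229.8 FPKM in GAG-41B and 1.21, 1.48 and 0.697 FPKM in GAG-1103P, the widest range of combination means of any of the 148 genes. The second, Vv16s0100g01110, averaged 11.8 ± 1.83 FPKM in GAG-41B and 0.18 ± 0.04998 FPKM in GAG-1103P. Both families hold near-identical copies. How reads that fit several copies were assigned is not given in the sources used here, so the values of single copies are uncertain.

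Cinnamoyl-CoA reductase is the committed step toward monolignols, and its 3 listed genes did not move as one. Vv02s0012g01570 had 868, 897 and 878 FPKM in GAG-41B, 284, 285 and 287 in GAG-KOB, 218, 209 and 198 FPKM in GAG-3309C, 157, 158 and 157 in GAG-17-37 and 73.9, 78.7 and 75.05 in GAG-1103P. The libraries of each combination lay close together and apart from all others, with 0.45 ± 0.04 between GAG-KOB and GAG-3309C (adjusted p = 2.56e-06) and 0.41 ± 0.04 between GAG-3309C and GAG-17-37 (adjusted p = 2.45e-05). Vv14s0066g01150 averaged 802 ± 93.5 FPKM in GAG-41B, 181 ± 21.2 FPKM in GAG-KOB, 125 ± 18.3 FPKM in GAG-3309C, 116 ± 11.8 FPKM in GAG-17-37 and 54.97 ± 5.06 FPKM in GAG-1103P. The third gene, Vv16s0039g01670, ran the other way, with 2.91, 2.48 and 3.34 FPKM in GAG-41B, 18.1, 19.1 and 20.1 in GAG-KOB, 13.98, 17.6 and 17.1 FPKM in GAG-3309C, 20.9, 22.8 and 23.5 in GAG-17-37 and 36.1, 38. and 38.3 in GAG-1103P. It was lowest in GAG-41B, highest in GAG-1103P, and lower in GAG-3309C than in GAG-17-37 by 0.47 ± 0.11 (adjusted p = 0.00901).

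The 3 genes annotated as N-hydroxycinnamoyl/benzoyltransferases, acyltransferases named after a carnation enzyme that makes phytoalexin amides, have neighbouring identifiers on chromosome 18. The most abundant, Vv18s0001g10180, had 364, 309 and 310.2 FPKM in GAG-41B, 137, 120.5 and 121 in GAG-KOB, 93.7, 70.1 and 68.2 FPKM in GAG-3309C, 78.3, 69.2 and 66.9 in GAG-17-37 and 22., 19.8 and 18.6 in GAG-1103P. GAG-KOB stood above GAG-3309C by 0.72 ± 0.12 (adjusted p = 0.000444), and GAG-3309C and GAG-17-37 overlapped. Its neighbours Vv18s0001g10200 and Vv18s0001g10230 were likewise higher in GAG-KOB than in GAG-17-37, by 1.14 ± 0.21 and 1.16 ± 0.22 (adjusted p = 0.000933 and 0.00117). Secoisolariciresinol dehydrogenase makes the lignan matairesinol, and the pair of genes so annotated differed from each other. Vv08s0058g00790 averaged 6.96 ± 0.594 FPKM in GAG-41B, 1.57 ± 0.498 FPKM in GAG-KOB, 0.582 ± 0.104 FPKM in GAG-3309C, 1.53 ± 0.311 FPKM in GAG-17-37 and 0.268 ± 0.158 FPKM in GAG-1103P, so that GAG-3309C was below GAG-17-37 by 1.25 ± 0.28 (adjusted p = 0.00868). Vv06s0080g01020 was the only gene of this group with its highest mean in GAG-KOB, 2.59 ± 0.0532 FPKM, against 0.634 ± 0.154 FPKM in GAG-3309C and 0.504 ± 0.0708 FPKM in GAG-17-37 (differences of 1.90 ± 0.23 and 2.16 ± 0.23, adjusted p = 3.15e-05 and 1.24e-05).

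**Figure D2:**
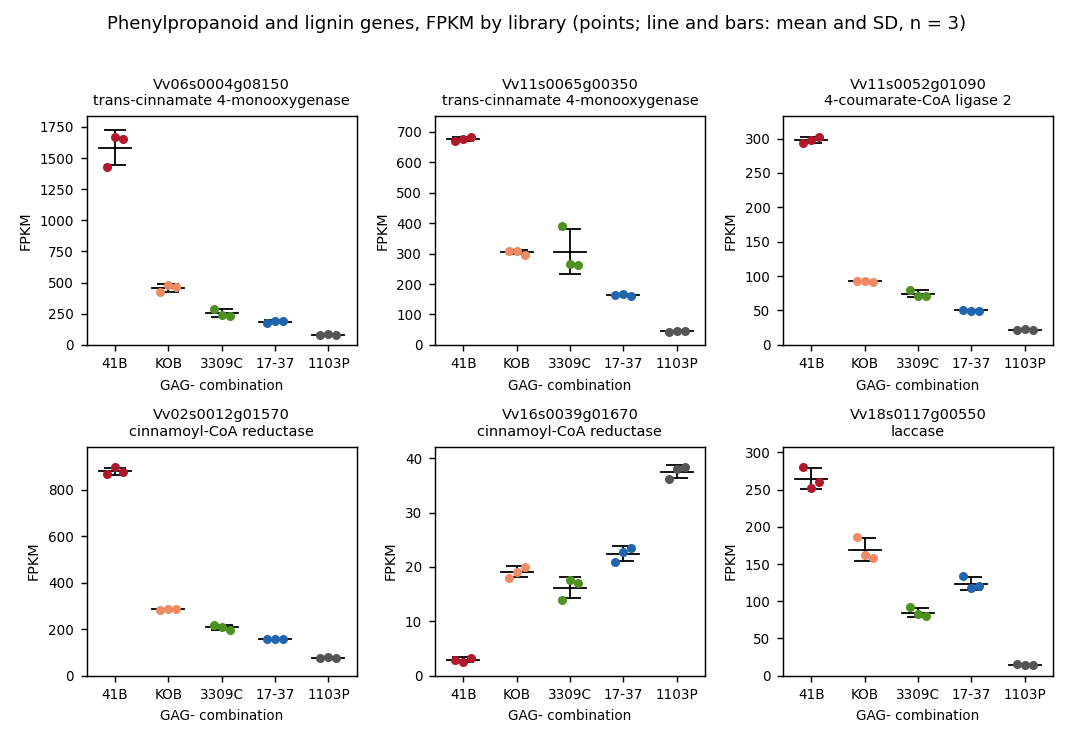
FPKM in the 15 libraries for 6 phenylpropanoid and lignin genes, with the graft combination on the horizontal axis, a linear vertical axis from 0, 1 point per library and the mean and SD (n = 3) as black lines. Of these, 5 genes stand highest in GAG-41B and lowest in GAG-1103P, whereas cinnamoyl-CoA reductase gene Vv16s0039g01670 is lowest in GAG-41B with 2.48 to 3.34 FPKM, and the laccase gene is lower in GAG-3309C than in GAG-17-37.

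Laccases are copper oxidases that oxidise monolignols in the cell wall. Of the 16 laccase genes, 15 were lowest in GAG-1103P and 14 highest in GAG-41B, but the combinations between stood in another order than for the entry genes. GAG-KOB exceeded GAG-3309C in 10 of the 16 and fell below it in 0, whereas GAG-3309C was below GAG-17-37 in 8 and above it in 1, with medians of 1.06 and -0.90 on the log2 scale. GAG-KOB and GAG-17-37 differed less, with 3 genes higher and 1 lower and a median of 0.37. This was 25% of the laccases, against 33.3% of all genes tested. In GAG-KOB vs. GAG-3309C it was 62.5%, against 34.9%, and in GAG-3309C vs. GAG-17-37 56.2%, against 16.9%. With every library scaled to the same total, 9 laccase genes were higher and 0 lower in GAG-KOB vs. GAG-3309C. In GAG-3309C vs. GAG-17-37, 1 was then higher and 7 lower. With only the libraries of the compared pair in the fit, GAG-3309C vs. GAG-17-37 had 0 higher and 5 lower. In comparison, the 8 entry genes had medians of 0.19 in GAG-KOB vs. GAG-3309C and 0.37 in GAG-3309C vs. GAG-17-37. The summed leaf markers above were also lowest in GAG-3309C, and their part in these differences was not tested.

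The most abundant laccase gene, Vv18s0117g00550, had 279.9, 253 and 261 FPKM in GAG-41B, 187, 162 and 159 in GAG-KOB, 92.03, 82.2 and 80.2 FPKM in GAG-3309C, 134, 117 and 120.1 in GAG-17-37 and 15.8, 13.9 and 14.6 in GAG-1103P. All 5 combinations were separate, and GAG-3309C was the lowest after GAG-1103P. GAG-KOB exceeded GAG-3309C by 0.99 ± 0.08 (adjusted p = 1.2e-06) and GAG-17-37 by 0.45 ± 0.08 (adjusted p = 0.000902), and GAG-3309C was below GAG-17-37 by 0.54 ± 0.08 (adjusted p = 0.000521). A run of 5 laccase genes has consecutive identifiers on one scaffold of chromosome 18, Vv18s0075g00580 to Vv18s0075g00620. In that run, Vv18s0075g00580 had 6.73, 6.39 and 5.63 FPKM in GAG-41B, 4.19, 4.76 and 4.41 in GAG-KOB, 1.46, 1.23 and 1.26 FPKM in GAG-3309C, 3.55, 3.95 and 4.09 in GAG-17-37 and 1.06, 0.658 and 0.681 in GAG-1103P. Vv18s0075g00590 had 15.4, 15.98 and 19.1 FPKM in GAG-41B, 11.8, 10.8 and 10.3 in GAG-KOB, 2.68, 2.13 and 2.83 FPKM in GAG-3309C, 9.25, 6.596 and 7.07 in GAG-17-37 and 0.758, 1.56 and 1.39 in GAG-1103P. For both genes the libraries of GAG-3309C lay under all those of GAG-KOB and GAG-17-37, with differences from GAG-17-37 of -1.49 ± 0.16 and -1.54 ± 0.22 (adjusted p = 3.62e-05 and 0.000362). For Vv18s0075g00620 the difference of GAG-3309C from GAG-17-37 was -1.47 ± 0.32 (adjusted p = 0.00751).

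The remaining genes of the run were less steady. Vv18s0075g00600 had 5.95, 6.76 and 6.65 FPKM in GAG-KOB and 2.15, 1.79 and 0 FPKM in GAG-3309C, where library C was listed at 0. Its increase of 3.12 ± 0.88 in GAG-KOB vs. GAG-3309C, the largest in that contrast among genes averaging 1 FPKM or more (adjusted p = 0.0144), owes its size to that library. Without it the difference was 1.66 (adjusted p = 0.00253). With only the libraries of that pair in the fit it did not pass (adjusted p = 0.0945). Vv18s0075g00610 had 31.99, 15.2 and 13.2 FPKM in GAG-41B and 17.6, 5.68 and 5.21 in GAG-KOB, and 0, 4.57 and 3.67 in GAG-1103P, with library A far above B and C in GAG-41B and GAG-KOB and at 0 in GAG-1103P. The same doubt over reads shared between copies holds for the laccases of a run.

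**Figure D3:**
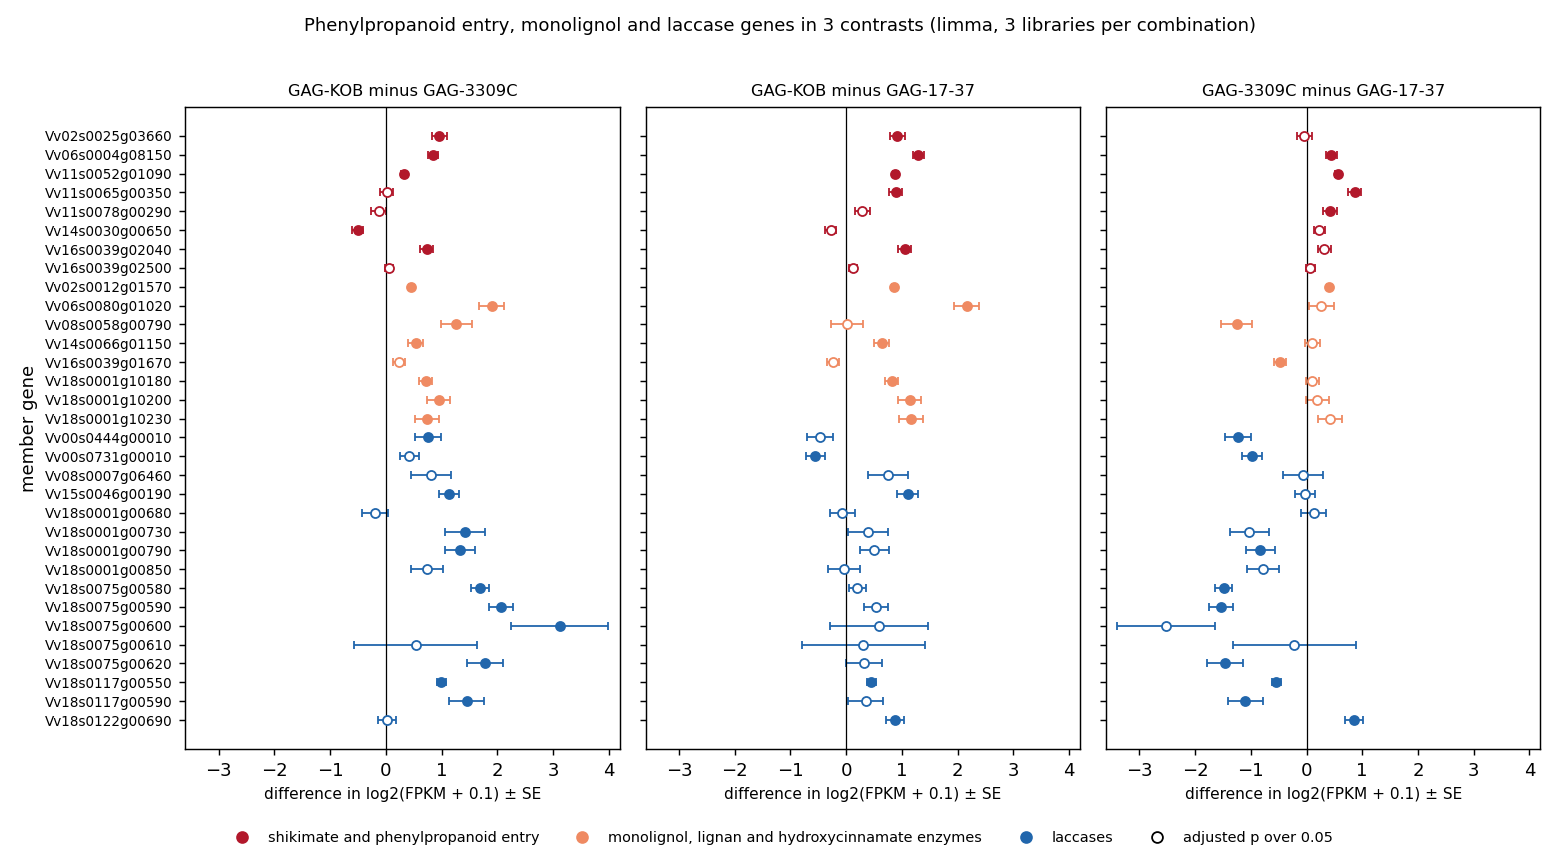
Differences in log2(FPKM + 0.1) with their SE (bars) for the 8 entry genes, the 8 monolignol, lignan and hydroxycinnamate genes and the 16 laccase genes in GAG-KOB minus GAG-3309C, GAG-KOB minus GAG-17-37 and GAG-3309C minus GAG-17-37, with filled points for an adjusted p of 0.05 or less. In the right panel 8 filled laccase points lie left of 0 and 1 right of it, whereas 4 filled entry points lie right of 0.

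Outside these runs, Vv18s0122g00690 was the laccase gene that was higher in GAG-3309C than in GAG-17-37. It averaged 21.1 ± 0.915 FPKM in GAG-41B, 4.01 ± 0.576 FPKM in GAG-KOB, 4.002 ± 0.921 FPKM in GAG-3309C, 2.15 ± 0.354 FPKM in GAG-17-37 and 0.998 ± 0.0515 FPKM in GAG-1103P (0.86 ± 0.16 for GAG-3309C vs. GAG-17-37, adjusted p = 0.00266, or 0.0549 with only the libraries of that pair in the fit). Vv18s0001g00680 was the laccase gene with its highest mean outside both GAG-41B and GAG-KOB. Its values were 0.221, 0.291 and 0.284 FPKM in GAG-41B and 0.123, 0.113 and 0.0602 in GAG-1103P, and between 0.728 and 1.16 FPKM in the other 9 libraries. Its neighbour Vv18s0001g00790, with the widest range of combination means among laccases of at least 1 FPKM, averaged 3.82 ± 0.445 FPKM in GAG-41B, 1.14 ± 0.177 FPKM in GAG-KOB, 0.402 ± 0.143 FPKM in GAG-3309C, 0.775 ± 0.152 FPKM in GAG-17-37 and 0.07402 ± 0.04899 FPKM in GAG-1103P.

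Lignin and lignan formation also needs peroxidases and dirigent proteins, which the study filed under other categories, and 11 such genes were in its list. Between the middle combinations 5 were higher and 3 lower in GAG-KOB vs. GAG-3309C, and 6 higher and 3 lower in GAG-KOB vs. GAG-17-37. In GAG-3309C vs. GAG-17-37, 7 were higher and 1 lower. That was 72.7%, 81.8% and 72.7% of the 11, against 34.9%, 33.3% and 16.9% of all genes tested. Dirigent proteins steer the coupling of monolignol radicals into lignans. The most abundant dirigent gene, Vv06s0004g01010, had 2585, 2296 and 2293 FPKM in GAG-41B, 1185, 1090.2 and 1099 in GAG-KOB, 1068, 888 and 849 FPKM in GAG-3309C, 486, 447 and 435 in GAG-17-37 and 96.4, 81.5 and 75.3 in GAG-1103P. Its level in GAG-3309C stood 1.03 ± 0.10 above GAG-17-37 on the log2 scale (adjusted p = 2.24e-05), the opposite order to the 8 laccases that passed as lower in GAG-3309C. An anionic peroxidase gene, Vv01s0010g02010, was highest in GAG-17-37 instead, with 3.05 ± 0.861 FPKM in GAG-41B, 5.04 ± 0.123 FPKM in GAG-KOB, 6.33 ± 1.14 FPKM in GAG-3309C, 17.7 ± 1.33 FPKM in GAG-17-37 and 2.31 ± 0.394 FPKM in GAG-1103P (-1.48 ± 0.19 for GAG-3309C vs. GAG-17-37, adjusted p = 0.000162).

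The 8 terpene synthase genes followed no common order. Their mean was highest in GAG-17-37 for 4, in GAG-41B for 2, and in GAG-3309C and GAG-1103P for 1 each. In the tested contrasts 1 was higher and 1 lower in GAG-KOB vs. GAG-3309C, and 1 higher and 3 lower in GAG-KOB vs. GAG-17-37. In GAG-3309C vs. GAG-17-37, 2 were higher and 3 lower. That was 25%, 50% and 62.5% of the 8, against 34.9%, 33.3% and 16.9% of all genes tested. Germacrene D synthase makes a sesquiterpene of leaf scent, and Vv18s0001g04280 was the most abundant terpene synthase gene of the list. It had 40.2, 40.4 and 42.4 FPKM in GAG-41B, 41.3, 43.3 and 46.9 in GAG-KOB, 64.2, 64.6 and 67.2 FPKM in GAG-3309C, 51.05, 57. and 52.4 in GAG-17-37 and 4.75, 5.16 and 4.35 in GAG-1103P. GAG-1103P stood alone at the low end, while the top was GAG-3309C and not GAG-41B. GAG-KOB was below GAG-3309C by 0.58 ± 0.07 (adjusted p = 3.17e-05), and GAG-3309C above GAG-17-37 by 0.29 ± 0.07 (adjusted p = 0.0115). The other germacrene D synthase genes were near 1 FPKM or under it. Vv18s0001g04530 averaged 0.549 ± 0.128 FPKM in GAG-41B, 0.966 ± 0.33 FPKM in GAG-KOB, 1.33 ± 0.401 FPKM in GAG-3309C, 1.39 ± 0.212 FPKM in GAG-17-37 and 0.284 ± 0.162 FPKM in GAG-1103P. Vv18s0001g05240 averaged 0.2099 ± 0.0755 FPKM in GAG-41B and 1.001 ± 0.171 FPKM in GAG-1103P, the highest of its 5 means.

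Linalool synthases make a floral monoterpene alcohol, and the 4 genes so annotated split into opposite patterns. Vv00s0271g00060, on an unplaced scaffold, had 12.2, 12.1 and 11.9 FPKM in GAG-41B, 1.24, 1.01 and 1.79 in GAG-KOB, 0.703, 0.961 and 0.819 FPKM in GAG-3309C, 0.151, 0.0891 and 0.405 in GAG-17-37 and 0.384, 0.551 and 0.325 in GAG-1103P. It was high in GAG-41B and lowest in GAG-17-37, which GAG-KOB exceeded by 2.29 ± 0.32 (adjusted p = 0.000128) and GAG-3309C by 1.68 ± 0.32 (adjusted p = 0.00296, or 0.0607 with only the libraries of that pair in the fit). The S-linalool synthase gene Vv00s0692g00020 had 0.111, 0 and 0.0547 FPKM in GAG-41B, 1.82, 1.62 and 1.73 in GAG-KOB, 1.84, 2.96 and 2.98 FPKM in GAG-3309C, 8.53, 7.72 and 8.79 in GAG-17-37 and 2.54, 2.62 and 3.04 in GAG-1103P. Every library of GAG-17-37 was above every other library, GAG-41B was at or near 0, and GAG-3309C fell short of GAG-17-37 by 1.68 ± 0.24 (adjusted p = 0.000462). The other S-linalool synthase gene, Vv10s0116g00750, had 0.0303, 0.138 and 0.05397 FPKM in GAG-41B, 0.773, 1.13 and 0.919 in GAG-KOB, 1.196, 1.501 and 0.913 FPKM in GAG-3309C, 4.67, 3.73 and 4.34 in GAG-17-37 and 1.497, 1.52 and 1.38 in GAG-1103P. The order was that of Vv00s0692g00020, with a decrease of 1.76 ± 0.24 in GAG-3309C vs. GAG-17-37 (adjusted p = 0.000275), the largest called in that contrast among genes of at least 1 FPKM. R-linalool synthase gene Vv12s0134g00090 stayed between 0.0621 and 0.831 FPKM, with overlapping libraries in most combinations.

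Isoprene synthase releases a hemiterpene from leaves. The gene so annotated, Vv12s0134g00020, was weak in every library, with 0.312, 0.233 and 0.228 FPKM in GAG-41B, 0.707, 0.812 and 0.601 in GAG-KOB, 0.126, 0.0556 and 0.0838 FPKM in GAG-3309C, 1.22, 0.965 and 0.966 in GAG-17-37 and 0.05405, 0.0527 and 0.0845 in GAG-1103P. GAG-KOB and GAG-17-37 stood clear of GAG-3309C, GAG-KOB by 2.11 ± 0.23 (adjusted p = 1.54e-05), while GAG-3309C was below GAG-17-37 by 2.62 ± 0.23 (adjusted p = 8.92e-06).

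**Figure D4:**
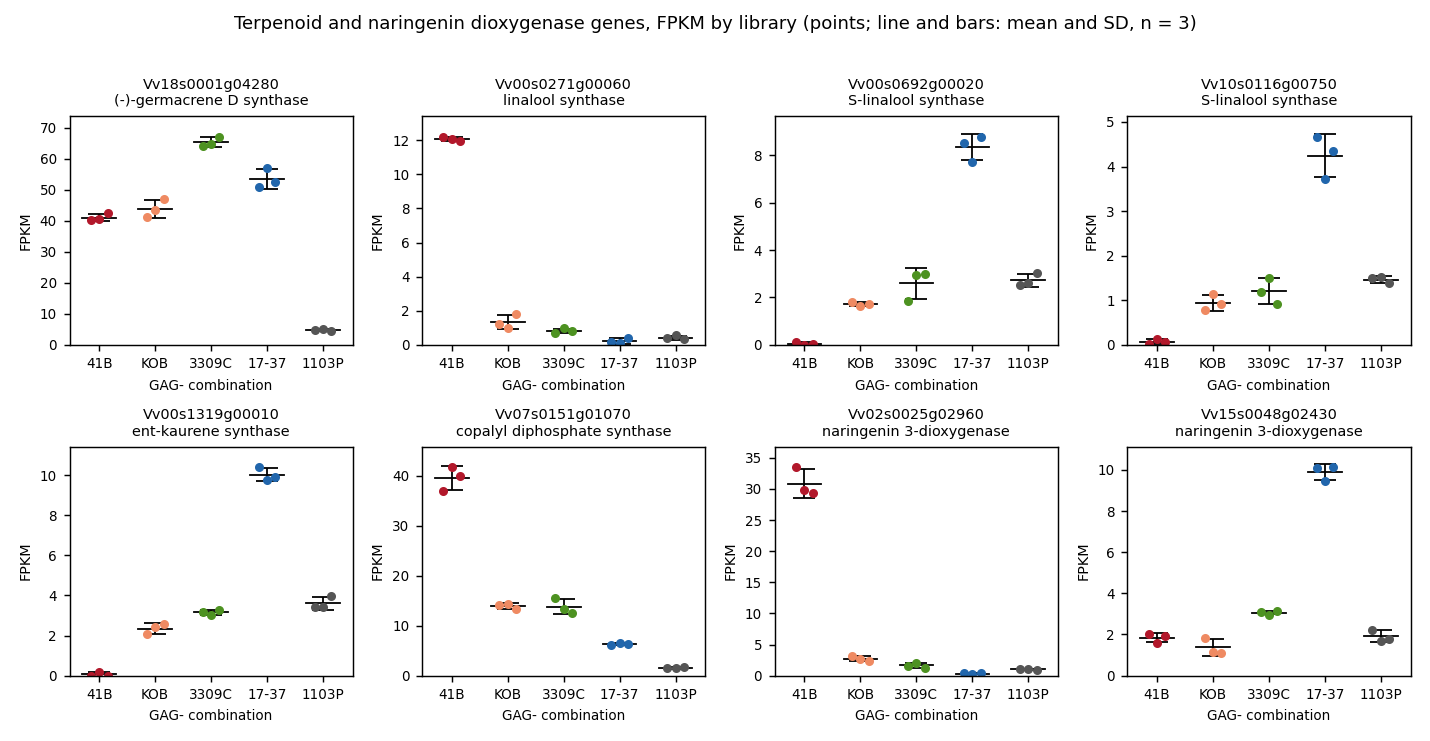
FPKM in the 15 libraries for 6 terpenoid genes and the 2 naringenin dioxygenase genes, with the graft combination on the horizontal axis, a linear vertical axis from 0, 1 point per library and the mean and SD (n = 3) as black lines. The S-linalool synthase, ent-kaurene synthase and Vv15s0048g02430 panels peak in GAG-17-37, the linalool synthase, copalyl diphosphate synthase and Vv02s0025g02960 panels in GAG-41B, and germacrene D synthase in GAG-3309C.

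Gibberellins start from copalyl diphosphate, which ent-kaurene synthase turns into ent-kaurene. Of the genes annotated for these consecutive steps, that of the first was highest in GAG-41B and that of the next was lowest there. Copalyl diphosphate synthase gene Vv07s0151g01070 had 37.1, 41.7 and 39.9 FPKM in GAG-41B, 14.2, 14.3 and 13.3 in GAG-KOB, 15.5, 13.4 and 12.6 FPKM in GAG-3309C, 6.06, 6.59 and 6.33 in GAG-17-37 and 1.47, 1.46 and 1.79 in GAG-1103P. GAG-KOB and GAG-3309C overlapped (difference 0.01 ± 0.10, adjusted p = 0.944), and GAG-3309C was above GAG-17-37 by 1.11 ± 0.10 (adjusted p = 7.47e-06). Ent-kaurene synthase gene Vv00s1319g00010 had 0, 0.192 and 0 FPKM in GAG-41B, 2.05, 2.41 and 2.57 in GAG-KOB, 3.17, 3.02 and 3.26 FPKM in GAG-3309C, 10.4, 9.75 and 9.92 in GAG-17-37 and 3.44, 3.42 and 3.99 in GAG-1103P. This profile was close to that of the S-linalool synthase genes, with GAG-17-37 on top and GAG-41B listed at 0 in 2 of its 3 libraries. GAG-3309C was below GAG-17-37 by 1.64 ± 0.31 (adjusted p = 0.00315). With 0.01 FPKM added before the logarithm in place of 0.1, the adjusted p of this contrast was 0.22 for Vv00s1319g00010 and 0.0944 for Vv00s0692g00020. Whether the 3 identifiers hold parts of close copies was not tested. Ent-kaurenoic acid oxidase gene Vv18s0001g10500, of a later step, averaged 7.49 ± 0.545 FPKM in GAG-41B, 2.95 ± 0.494 FPKM in GAG-KOB, 0.7305 ± 0.1798 FPKM in GAG-3309C, 1.96 ± 0.339 FPKM in GAG-17-37 and 1.55 ± 0.185 FPKM in GAG-1103P. It was lower in GAG-3309C than in GAG-17-37 by 1.32 ± 0.18 (adjusted p = 0.000274). Lycopene beta cyclase closes the rings of carotenes in plastids, and its gene Vv08s0007g05690 averaged 21.6 ± 1.804 FPKM in GAG-41B, 51.6 ± 1.78 FPKM in GAG-KOB, 55.3 ± 1.44 FPKM in GAG-3309C, 75.6 ± 3.904 FPKM in GAG-17-37 and 91.5 ± 6.71 FPKM in GAG-1103P. GAG-KOB was below GAG-17-37 by 0.55 ± 0.07 (adjusted p = 5.4e-05).

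Of the 14 flavonoid-modifying genes, 11 were highest in GAG-41B, and 8 were higher and 2 lower in GAG-KOB vs. GAG-17-37. In that contrast 71.4% of the 14 passed, against 33.3% of all genes tested. The pair annotated naringenin,2-oxoglutarate 3-dioxygenase, an enzyme that hydroxylates the flavanone naringenin, included the largest differences of either sign in GAG-KOB vs. GAG-17-37. Vv02s0025g02960 had 33.5, 29.8 and 29.3 FPKM in GAG-41B, 3.19, 2.603 and 2.41 in GAG-KOB, 1.55, 2.07 and 1.28 FPKM in GAG-3309C, 0.409, 0.217 and 0.369 in GAG-17-37 and 1.11, 1.01 and 0.916 in GAG-1103P. It was lowest in GAG-17-37, with no overlap with any other combination, and the increases of 2.73 ± 0.20 in GAG-KOB vs. GAG-17-37 (adjusted p = 6.96e-07) and 2.01 ± 0.20 in GAG-3309C vs. GAG-17-37 (adjusted p = 2.59e-05) were the largest called among genes of at least 1 FPKM. Vv15s0048g02430 had 2.02, 1.59 and 1.91 FPKM in GAG-41B, 1.85, 1.17 and 1.11 in GAG-KOB, 3.095, 2.97 and 3.14 FPKM in GAG-3309C, 10.1, 9.47 and 10.1 in GAG-17-37 and 2.24, 1.69 and 1.804 in GAG-1103P. Here GAG-17-37 was alone at the top, and the decreases of 2.80 ± 0.17 in GAG-KOB vs. GAG-17-37 (adjusted p = 1.67e-07) and 1.14 ± 0.17 in GAG-KOB vs. GAG-3309C (adjusted p = 0.000223) were the largest called by the same limits.

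Flavonoid 3′-hydroxylase adds a hydroxyl to the B ring. Its most abundant gene, Vv09s0002g01090, had 245, 247 and 243 FPKM in GAG-41B, 77.8, 78.98 and 79.9 in GAG-KOB, 101, 76.6 and 79.9 FPKM in GAG-3309C, 43.5, 41.6 and 43.4 in GAG-17-37 and 33.3, 31.99 and 34.2 in GAG-1103P. GAG-KOB and GAG-3309C overlapped and both stood above GAG-17-37, GAG-3309C by 0.99 ± 0.08 (adjusted p = 3.97e-06). Vv00s1682g00020, annotated as the same enzyme, averaged 46.98 ± 5.11 FPKM in GAG-41B, 19.2 ± 2.45 FPKM in GAG-KOB, 8.496 ± 0.859 FPKM in GAG-3309C, 11.9 ± 1.34 FPKM in GAG-17-37 and 5.17 ± 0.535 FPKM in GAG-1103P, with GAG-KOB above GAG-3309C by 1.16 ± 0.13 (adjusted p = 1.57e-05). The isoflavone methyltransferase gene Vv12s0028g01940 had 46.4, 46.7 and 46.8 FPKM in GAG-41B, 7.18, 8.53 and 8.79 in GAG-KOB, 9.31, 8.699 and 9.205 FPKM in GAG-3309C, 2.92, 2.99 and 3.15 in GAG-17-37 and 1.27, 1.07 and 1.04 in GAG-1103P. GAG-KOB and GAG-3309C overlapped, and GAG-3309C was above GAG-17-37 by 1.56 ± 0.09 (adjusted p = 3.73e-07).

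Glycosyltransferases attach sugars to phenolics and hormones, and the 15 listed genes divided into 7 highest in GAG-41B and 8 lowest there. Of these, 6 passed as higher and 4 as lower in GAG-KOB vs. GAG-3309C, and 1 as higher and 3 as lower in GAG-3309C vs. GAG-17-37. Against 34.9% and 16.9% of all genes tested, that was 66.7% and 26.7% of the 15 glycosyltransferase genes. The most abundant, Vv03s0017g02120, annotated as a UDP-glucose flavonoid 3-O-glucosyltransferase, had 174, 192 and 184 FPKM in GAG-41B, 75.01, 71.8 and 70.3 in GAG-KOB, 65.2, 55.6 and 60.3 FPKM in GAG-3309C, 36.2, 37.5 and 36.3 in GAG-17-37 and 4.34, 5.43 and 4.74 in GAG-1103P. GAG-3309C was above GAG-17-37 by 0.71 ± 0.08 (adjusted p = 5.29e-05), with GAG-1103P far under the rest. A run of 3 genes on chromosome 5 was high in GAG-41B alone. Vv05s0062g00270, annotated as a flavonoid 7-O-glucosyltransferase, had 93.8, 78.9 and 85.5 FPKM in GAG-41B, 10.6, 9.05 and 8.25 in GAG-KOB, 5.22, 3.33 and 3.19 FPKM in GAG-3309C, 6.69, 5.68 and 5.51 in GAG-17-37 and 5.66, 4.35 and 4.43 in GAG-1103P. Outside GAG-41B the values of this gene lay within 3.19 to 10.6 FPKM, and GAG-KOB exceeded GAG-3309C by 1.26 ± 0.17 (adjusted p = 0.000115). Its neighbours Vv05s0062g00300 and Vv05s0062g00310 averaged 19.9 ± 2.02 FPKM and 17.1 ± 1.61 FPKM in GAG-41B, and 1.31 ± 0.205 FPKM and 0.583 ± 0.182 FPKM in GAG-1103P. They were also higher in GAG-KOB than in GAG-3309C, by 1.42 ± 0.19 and 1.82 ± 0.24 (adjusted p = 6.93e-05 and 6.86e-05). Reads from these close copies may not have been told apart.

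Glutathione S-transferases conjugate or bind small molecules, and 10 of the 13 listed genes were highest in GAG-41B. The most abundant of all 148 genes, GSTU7 gene Vv16s0039g01070, had 6274, 6601 and 6564 FPKM in GAG-41B, 1974, 2197 and 2221 in GAG-KOB, 1109, 1271 and 1286 FPKM in GAG-3309C, 802, 917 and 886 in GAG-17-37 and 397, 457 and 425 in GAG-1103P. It gave the same descending order as cinnamate 4-hydroxylase gene Vv06s0004g08150, with adjusted p of 5.97e-06 for GAG-KOB vs. GAG-3309C and 0.000886 for GAG-3309C vs. GAG-17-37. GSTU18 gene Vv01s0026g01340 had 1614, 1669 and 1631 FPKM in GAG-41B, 1002, 1061 and 1058 in GAG-KOB, 295, 324 and 339 FPKM in GAG-3309C, 460.5, 457 and 456 in GAG-17-37 and 269, 273 and 265 in GAG-1103P. GAG-3309C fell just above GAG-1103P here, 0.52 ± 0.05 below GAG-17-37 (adjusted p = 1.52e-05). GSTU7 gene Vv08s0040g00920 averaged 22.99 ± 3.94 FPKM in GAG-41B, 16.8 ± 1.43 FPKM in GAG-KOB, 5.26 ± 0.862 FPKM in GAG-3309C, 2.63 ± 0.219 FPKM in GAG-17-37 and 0.627 ± 0.136 FPKM in GAG-1103P, with 2.63 ± 0.16 between GAG-KOB and GAG-17-37 (adjusted p = 1.69e-07).

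The 37 P450 genes with CYP names were divided, with 22 lower and 15 higher in GAG-41B relative to GAG-1103P. In GAG-KOB vs. GAG-17-37 11 were higher and 15 lower, and in GAG-KOB vs. GAG-3309C 11 higher and 12 lower. In GAG-3309C vs. GAG-17-37, 7 were higher and 6 lower. That was 70.3%, 62.2% and 35.1% of the 37, against 33.3%, 34.9% and 16.9% of all genes tested. CYP94A1 is known from vetch as a fatty acid omega-hydroxylase, and of the 4 genes with this name 3 were high in GAG-41B and 1 was low. Vv07s0141g00890 had 295, 286 and 274 FPKM in GAG-41B, 118, 109.5 and 104 in GAG-KOB, 90.4, 62.2 and 55.3 FPKM in GAG-3309C, 54.6, 48.5 and 49.1 in GAG-17-37 and 12.7, 11.6 and 10.7 in GAG-1103P. GAG-KOB exceeded GAG-3309C by 0.71 ± 0.14 (adjusted p = 0.00161), where library A stood above B and C. The low one, Vv08s0040g00820, averaged 0.321 ± 0.0668 FPKM in GAG-41B and 3.398 ± 0.324 FPKM in GAG-1103P. CYP71E gene Vv06s0004g06480 averaged 170.4 ± 5.66 FPKM in GAG-41B, 59.2 ± 2.08 FPKM in GAG-KOB, 33.6 ± 6.55 FPKM in GAG-3309C, 27.9 ± 1.64 FPKM in GAG-17-37 and 15.1 ± 1.47 FPKM in GAG-1103P.

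The most abundant P450 gene, CYP87A3 gene Vv15s0048g01960, had 314, 309.8 and 306 FPKM in GAG-41B, 188, 176 and 177 in GAG-KOB, 276, 243 and 247 FPKM in GAG-3309C, 194, 190.1 and 187 in GAG-17-37 and 37.7, 31. and 34.3 in GAG-1103P. Its order was another one again, with GAG-KOB below GAG-3309C by 0.50 ± 0.07 (adjusted p = 7.47e-05), and the neighbouring CYP87A3 gene Vv15s0048g01950 was below as well, by 0.43 ± 0.08 (adjusted p = 0.00117). CYP715A1 gene Vv16s0050g00480 was nearly confined to GAG-41B, with 11.5, 14.4 and 14.03 FPKM there, against 0.0913, 0.156 and 0.301 FPKM in GAG-1103P, and no library of the other 4 combinations above 1.03 FPKM. CYP707A genes of Arabidopsis encode the hydroxylase that breaks down abscisic acid, and CYP707A3 gene Vv18s0076g00340 had 20.9, 23.2 and 23.2 FPKM in GAG-41B, 5.67, 6.34 and 5.91 in GAG-KOB, 1.78, 1.79 and 1.8 FPKM in GAG-3309C, 2.15, 2.14 and 1.76 in GAG-17-37 and 1.34, 1.49 and 1.24 in GAG-1103P. GAG-KOB was above GAG-3309C by 1.68 ± 0.10 (adjusted p = 1.02e-07), and GAG-3309C and GAG-17-37 overlapped.

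Further P450 genes had their top elsewhere than in GAG-41B. CYP72A1 is secologanin synthase in periwinkle, and Vv13s0067g00110 under this name had 2.56, 3.04 and 3.37 FPKM in GAG-41B, 4.17, 4.43 and 4.28 in GAG-KOB, 1.25, 2.04 and 1.66 FPKM in GAG-3309C, 4.97, 5.23 and 5.96 in GAG-17-37 and 13.7, 15.8 and 16.3 in GAG-1103P. Its lowest combination was GAG-3309C, below GAG-17-37 by 1.67 ± 0.15 (adjusted p = 1.4e-05). CYP86A enzymes hydroxylate fatty acids for cutin in Arabidopsis, and CYP86A2 gene Vv07s0031g01660 averaged 1.78 ± 0.282 FPKM in GAG-41B, 5.01 ± 0.331 FPKM in GAG-KOB, 6.82 ± 0.488 FPKM in GAG-3309C, 7.49 ± 0.747 FPKM in GAG-17-37 and 8.82 ± 0.805 FPKM in GAG-1103P. In contrast, CYP86A8 gene Vv15s0046g02380 had 1.601 ± 0.125 FPKM in GAG-41B and 0.233 ± 0.0257 FPKM in GAG-1103P. CYP81D2 gene Vv00s0790g00020 was highest in GAG-3309C, with 30.8 ± 0.842 FPKM in GAG-41B, 53.7 ± 1.44 FPKM in GAG-KOB, 67.8 ± 5.36 FPKM in GAG-3309C, 42.7 ± 0.875 FPKM in GAG-17-37 and 15.02 ± 0.737 FPKM in GAG-1103P (0.66 ± 0.06 for GAG-3309C vs. GAG-17-37, adjusted p = 8.96e-06). The 3-ketoacyl-CoA synthase gene Vv14s0006g02990, of the elongation of very long fatty acids for wax, had 6.68, 7.54 and 6.26 FPKM in GAG-41B, 37.4, 31.6 and 30.8 in GAG-KOB, 17.6, 15.7 and 13.5 FPKM in GAG-3309C, 37.3, 30.4 and 31.8 in GAG-17-37 and 37.4, 28.2 and 32.2 in GAG-1103P. GAG-KOB, GAG-17-37 and GAG-1103P were level, and GAG-3309C was below GAG-17-37 by 1.09 ± 0.13 (adjusted p = 0.000107), as it was for 8 of the 16 laccases.

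Names from alkaloid and taxane pathways were given by similarity, and none of them places the product in grapevine. Reticuline oxidase is the berberine bridge enzyme of poppies. The gene so annotated with the highest level, Vv10s0003g05430, had 2458, 2627 and 2762 FPKM in GAG-41B, 1346, 1354 and 1312 in GAG-KOB, 906, 896 and 852 FPKM in GAG-3309C, 781, 851 and 854 in GAG-17-37 and 315, 376 and 369.7 in GAG-1103P. GAG-KOB was above GAG-3309C by 0.60 ± 0.07 (adjusted p = 2.88e-05), and GAG-3309C and GAG-17-37 differed by 0.10 ± 0.07 (adjusted p = 0.429). The adjacent Vv10s0003g05450 gave 677 ± 52.3 FPKM in GAG-41B, 392 ± 34.7 FPKM in GAG-KOB, 268 ± 3.02 FPKM in GAG-3309C, 241 ± 15.3 FPKM in GAG-17-37 and 108 ± 8.88 FPKM in GAG-1103P. Norcoclaurine synthase opens the benzylisoquinoline pathway, and Vv02s0012g00320 averaged 2.699 ± 0.801 FPKM in GAG-41B and 0.241 ± 0.0474 FPKM in GAG-1103P, whereas Vv02s0012g00380 under the same name averaged 0.449 ± 0.153 FPKM in GAG-41B and 2.42 ± 0.254 FPKM in GAG-1103P. The taxadienol acetyltransferase gene Vv06s0004g07650 had 4.22, 4.04 and 4.29 FPKM in GAG-41B, 31.99, 29.1 and 28.5 in GAG-KOB, 52.1, 40.1 and 39.4 FPKM in GAG-3309C, 45.9, 41.5 and 45.1 in GAG-17-37 and 26.8, 25.9 and 27.3 in GAG-1103P. It was low in GAG-41B alone, and GAG-3309C and GAG-17-37 stood above both GAG-KOB and GAG-1103P. Taxane 10-beta-hydroxylase gene Vv11s0065g00130 averaged 66.2 ± 5.35 FPKM in GAG-41B, 31.3 ± 3.21 FPKM in GAG-KOB, 22.95 ± 5.39 FPKM in GAG-3309C, 18.1 ± 2.16 FPKM in GAG-17-37 and 5.72 ± 0.532 FPKM in GAG-1103P.

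As a description, for 9 of the 148 genes the means of GAG-41B and GAG-17-37 lay on opposite sides of GAG-1103P. Both differences had an adjusted p of at most 0.05 in the same fit, used as a limit and not as a test. The share over all genes tested was not computed, so the count is not read as a trait of the 148 genes. For GAG-17-37 these differences were small in part, from 0.22 to 1.58 on the log2 scale in size. In 2 of these 9, Vv02s0025g02960 and the flavonoid 7-O-glucosyltransferase gene Vv05s0062g00710, GAG-41B was above and GAG-17-37 below. In the other 7, among them the S-linalool and ent-kaurene synthase genes, the taxadienol acetyltransferase gene and anthocyanin 5-aromatic acyltransferase gene Vv13s0019g03430, GAG-41B was below and GAG-17-37 above. By their identifiers, 31 of the 148 genes (20.9%) lie on chromosome 18, which holds 7.68% of all genes, and 16 (10.8%) on chromosome 16, which holds 4.38%, while 11 are unplaced. Runs of at least 3 genes of one role with neighbouring identifiers were found 8 times, the longest with 5 laccase genes on chromosome 18 and 5 phenylalanine ammonia-lyase genes on chromosome 16.

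In the fit used here, 143 of the 148 genes reached a difference of 2 on the log2 scale from GAG-1103P in at least 1 combination, and the largest difference of the other 5 lay between 1.63 and 1.99. Just inside the limit were desacetoxyvindoline 4-hydroxylase gene Vv12s0028g02430 with 2.02 and germacrene D synthase gene Vv18s0001g04530 with 2.03. Just outside were strictosidine synthase gene Vv04s0210g00030 with 1.99 and CYP721A1 gene Vv18s0001g12190 with 1.98. The 68 genes left out, stilbene synthases above all, were more uniform. Of them 82.4% were highest in GAG-41B, against 60.8% of the 148, and 11.8% lowest there, against 32.4%. Over all genes tested these shares were 36.5% and 36.7%. In GAG-3309C vs. GAG-17-37 21 of the 68 were higher and 4 lower, against 27 higher and 32 lower of the 148. The shares called in either direction were close, 36.8% of the 68 and 39.9% of the 148. Over all genes tested the share was 16.9% (7.37% higher and 9.53% lower).

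A list taken by annotation and not by expression was limited to the 1220 gene descriptions used here, all on unplaced scaffolds of low number, where 17 genes carry the family names linalool or myrcene synthase, CYP, glutathione S-transferase, cinnamyl alcohol dehydrogenase or glycosyltransferase. Of these, 10 were under the filter and 5 of those were listed at 0 in every library, and 2 of the 7 tested are among the 148 genes. Past the limit on the adjusted p were 5 of the 7 in GAG-41B vs. GAG-1103P, all higher, against 68.8% of all genes tested in either direction. This count is a description, since 2 of the 5 were among the genes chosen by the same contrast, another passed the filter through GAG-41B, and the list leaves out genes of these families on scaffolds of higher number, such as the S-linalool synthase gene Vv00s0692g00020 with its low level in GAG-41B. The myrcene synthase gene Vv00s0271g00030, on the scaffold of the GAG-41B linalool synthase gene, had 4.07, 3.81 and 3.62 FPKM in GAG-41B, 0.117, 0.236 and 0.271 in GAG-KOB, 0.152, 0.0358 and 0.252 FPKM in GAG-3309C, 0.03599, 0.0366 and 0.0498 in GAG-17-37 and 0.0328, 0 and 0 in GAG-1103P. It passed the filter through GAG-41B alone, so no test of it is given. Cinnamyl alcohol dehydrogenase makes the monolignols themselves, and Vv00s0218g00010 had 10.8, 10.9 and 9.65 FPKM in GAG-41B and 6.72, 6.59 and 6.403 in GAG-1103P, a difference of 0.66 ± 0.08 (adjusted p = 6.8e-06), while the highest mean was 11.3 ± 1.01 FPKM in GAG-KOB. GSTU19 gene Vv00s0240g00050 had 0.54, 1.67 and 0.678 FPKM in GAG-41B and 0.654, 0.282 and 0.302 in GAG-1103P, where the libraries overlapped and the difference of 0.98 ± 0.36 passed with an adjusted p of 0.0304. It did not pass without library B of GAG-41B (adjusted p = 0.151), B of GAG-1103P (0.107) or C of GAG-1103P (0.0972). The other genes past the limit, both among the 148, were GSTU8 gene Vv00s0153g00050, with 393 ± 1.53 FPKM in GAG-41B and 90.7 ± 3.85 FPKM in GAG-1103P, and the linalool synthase gene.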

How the data were processed

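Leaf RNA of 5 graft combinations, with 3 libraries each, was sequenced by the study, and the authors deposited 1 table of FPKM values per gene and library. The paper names a geometric method for the normalization of FPKM. The submitters' processing notes name CASAVA 1.8.2, TopHat2 2.0.14, Bowtie2 2.2.4, Cufflinks 2.2.0 and DESeq 1.6.3, without the handling of reads that map to several genes. Read totals per library are not part of the deposited FPKM table, and those the study lists elsewhere were not used here, so no counting interval is given. All 15 value columns were matched to samples by name and 0 were left out.

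FPKM was transformed as log2(FPKM + 0.1), which understates the change of low genes. The 21364 of 29970 genes that averaged 0.1 FPKM or more were fitted together over all 5 combinations with limma 3.58.1 in R 4.3.3 (eBayes with a mean-variance trend), and p-values were adjusted by Benjamini-Hochberg over all genes tested, with a limit of 0.05. Tables and plots were made in Python 3.11.15 using matplotlib 3.10.9, numpy 2.4.6 and pandas 2.3.3. The procedure was also run on simulated data, with independent noise around a single mean per gene and changes added in GAG-KOB only. That setting is simpler than the real data, and no result here rests on it.

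Genes were named by enzyme class (terpene, copalyl diphosphate and kaurene synthases, cinnamate hydroxylases, 4-coumarate-CoA ligases, cinnamoyl-CoA reductases), by the 2 highest means of each role (3 in roles of more than 15 genes), by the largest range of combination means in a role at 1 FPKM or more, by the largest called change without overlap of libraries in each tested contrast, by nearness to the 4-fold limit, and, in the unplaced list, by the call. The unplaced list and the leaf markers come from the first 1220 gene descriptions of the annotation, the others not being used here. The genes, roles and lists were chosen with earlier results of these data known. The alternatives tried were other added constants, other filters, 3 scalings, a fit of only the compared pair, a stricter limit, the replicate letter as a block and leaving out each library of the compared pair.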

Additional observations from a re-analysis of the deposited data

How the results depend on the processing

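With 1 FPKM added before the logarithm in place of 0.1, the 4-fold counts against GAG-1103P, at the same adjusted p limit, were lower. They were 90 in GAG-41B, 27 in GAG-KOB, 17 in GAG-3309C and 8 in GAG-17-37, since a larger constant shrinks the differences of low genes. With a filter at a mean of 1 FPKM, 3 genes of the unplaced list passed in GAG-41B vs. GAG-1103P. Leaving out in turn each library of the compared pair gave 79 to 92 called genes in GAG-KOB vs. GAG-3309C, 81 to 84 in GAG-KOB vs. GAG-17-37 and 51 to 57 in GAG-3309C vs. GAG-17-37. The 4-fold counts against GAG-1103P were then 134 to 138, 50 to 53, 27 to 30 and 26 to 29 for GAG-41B, GAG-KOB, GAG-3309C and GAG-17-37, and the unplaced list gave 4 to 5. With the replicate letter as a block the 3 tested contrasts had 94, 102 and 68 called genes. What a letter has in common across combinations is not given in the sources used here. Correlations between libraries of the same letter were -0.002 to 0.137 for A, -0.054 to 0.040 for B and -0.036 to 0.033 for C. Between different letters they were -0.101 to 0.104, and 5 of 15 libraries correlated best with their own letter. In some genes library A stood on the same side of B and C in every combination. It was above them for laccase gene Vv18s0117g00550 and below them for GSTU7 gene Vv16s0039g01070. The main fit has no term for the letter. Scaling every library to the same total moved the median of all genes by -0.38 in GAG-41B vs. GAG-1103P, -0.15 in GAG-KOB vs. GAG-3309C and -0.14 in GAG-KOB vs. GAG-17-37. Among single named genes and alternatives no called difference changed sign. Calls were lost in 48 gene and setting pairs in GAG-KOB vs. GAG-3309C, 47 in GAG-KOB vs. GAG-17-37 and 74 in GAG-3309C vs. GAG-17-37, and gained in 26, 29 and 16. The counting error of genes near 0 FPKM is not shown by FPKM.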
